A study of Homo sapiens with 16 samples.

Results

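The 10 genes described here encode alpha-tubulins (TUBA1A, TUBA1B and TUBA1C) and beta-tubulins (TUBB, TUBB2A, TUBB2B, TUBB3, TUBB4A, TUBB4B and TUBB6). They were taken by gene symbol from a table of 58884 genes, and each symbol had 1 row. Alpha- and beta-tubulin pair into heterodimers, and these polymerize into microtubules, the filaments of the mitotic spindle, the cilium and intracellular transport. Human cells carry several genes for each chain, which differ mainly in where they are expressed and in the carboxy-terminal tails of their proteins. Cells also control tubulin mRNA through autoregulation: when free tubulin is in excess, the factor TTC5 binds the nascent tubulin peptide at its first residues and recruits SCAPER and the CCR4-NOT deadenylase subunit CNOT11, and the mRNA decays. SETD2, the histone H3 lysine methyltransferase studied here, has also been described as a methyltransferase of alpha-tubulin, on the same lysine that the acetyltransferase ATAT1 modifies.

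RNA was sequenced from 293T cells, a human embryonic kidney line titled WT in the labels of all 6 libraries, 72 h after transfection with a scramble siRNA, with siRNA against SETD2 or with siRNA against hnRNP L, an RNA-binding splicing regulator. Each siRNA had 2 libraries, numbered 1 and 2 for scramble and hnRNP L siRNA and 2 and 3 for SETD2 siRNA. All libraries came from 1 cell line, and no untransfected cells are among them. Each library is a bulk preparation, so fewer expressing cells and less RNA per cell cannot be told apart. The methods describe the replicates of the sequencing experiments as biologically independent, and p-values measure the spread between these libraries.

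Levels are TPM, which are corrected for transcript length and scaled within a library so that all transcripts sum to 1000000. The study reports the read depth of each library, but the number of reads behind each gene's value cannot be recovered from TPM. SETD2 mRNA was at 13.38 and 11.70 TPM with scramble siRNA and at 4.24 and 4.91 TPM with SETD2 siRNA, 36.5% of the scramble mean (log2 fold change -1.36, SE 0.13, adjusted p = 0.00603). HNRNPL mRNA was at 341.04 and 457.16 TPM with scramble siRNA and at 25.04 and 28.81 TPM after hnRNP L depletion, or 6.75% of the mean of the controls (log2 fold change -3.85, SE 0.14, adjusted p = 8.48e-06). VIM, a mesenchymal filament gene abundant in this line, was at 649.5 to 940.78 TPM, and PTPRC, the leukocyte marker, was at 0 in all 6 libraries. NEFM, NEFL and KRT18, also listed for this line, were at 183.74 to 454.39, 64.61 to 129.77 and 59.68 to 77.24 TPM. KRT8 was at 31.12 to 43.43 TPM and INA at 8.56 to 12.26. For NEFM and NEFL both hnRNP L siRNA libraries were the highest. The remaining listed markers were less clear. COL1A1, a fibroblast marker, was at 2.83 to 5.17 TPM, above PAX2 (1.65 to 2.79) and LHX1 (1.07 to 1.69), which were listed for this line. ALB, a hepatocyte marker, reached 0.4 TPM, and COL1A2, CDH5, PECAM1 and MYH7 were at most at 0.12. Scramble library 1 stood apart: mitochondrial genes took 17.5% of its TPM, against 6.70% to 10.9% in the other 5 libraries.

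The mRNA sequences at the start of the reading frame are shown because the peptide they encode is the one that tubulin autoregulation reads. They were taken from the GENCODE release 44 transcripts on hg38, 1 transcript per gene, and each line gives the first 27 bases of the coding sequence 5′ to 3′, with the first 4 codons in capitals.
TUBA1A: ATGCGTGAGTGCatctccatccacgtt
TUBA1B: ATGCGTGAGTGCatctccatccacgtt
TUBA1C: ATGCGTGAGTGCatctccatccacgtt
TUBB: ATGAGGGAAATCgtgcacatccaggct
TUBB2A: ATGCGCGAGATCgtgcacatccaggcg
TUBB2B: ATGCGTGAGATCgtgcacatccaggcg
TUBB3: ATGAGGGAGATCgtgcacatccaggcc
TUBB4A: ATGCGGGAGATCgtgcacctgcaggcc
TUBB4B: ATGAGGGAAATCgtgcacttgcaggcc
TUBB6: ATGAGGGAGATCgtgcacatccaggcg
The 3 alpha-tubulin genes were identical over these 27 bases, and the 7 beta-tubulin genes had 5 different versions of the first 4 codons, all with the same translation. In the alpha-tubulin transcripts 1 intron had been removed from within the first 4 codons, and in the beta-tubulin transcripts none. All 10 transcripts had 4 exons.

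The codon for lysine 40 of alpha-tubulin, the residue that ATAT1 acetylates and for which methylation by SETD2 has been described, is shown in capitals with 4 codons on each side. It lies at chr12:49186717-49186719 in TUBA1A and chr12:49129606-49129608 in TUBA1B, both on the minus strand, and at chr12:49269579-49269581 in TUBA1C on the plus strand (hg38).
TUBA1A: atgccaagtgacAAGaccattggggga
TUBA1B: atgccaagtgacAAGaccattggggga
TUBA1C: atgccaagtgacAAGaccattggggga
All 3 transcripts carried the same codon in the same surroundings.

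The paralogs are close to each other in sequence, which bears on how reads can be assigned. The coding sequences of the alpha-tubulin genes were 95.9% to 97.2% identical between pairs, those of the beta-tubulin genes 81.0% to 98.1%, and an alpha with a beta sequence 55.1% to 57.4%. The closest pair was TUBB2A and TUBB2B, at 98.1%. The methods give paired reads of 75 bases. Shares of windows of that length stand for single reads and can overstate the ambiguity of a pair. Of all 75-base windows along each transcript, 31.2% of those in TUBA1A, 48.4% in TUBA1B and 18.1% in TUBA1C also occurred in transcripts of another gene. Among the beta-tubulins the share was 59.5% in TUBB2A, 52.1% in TUBB2B, 9.0% in TUBB, 5.6% in TUBB4B, 2.2% in TUBB4A and 0.0% in TUBB6. TUBB3 had 92.6%, all of them shared with a read-through transcript (ENSG00000198211) that spans it and was itself at 0.00 to 0.35 TPM. RSEM divides ambiguous reads between genes by estimation, so the values of TUBA1A, TUBA1B, TUBA1C, TUBB2A, TUBB2B and TUBB3 are less certain than those of TUBB6 and TUBB4A.

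The 3 alpha-tubulin genes lie on chromosome 12, TUBA1B at chr12:49127782-49131397, TUBA1A at chr12:49184686-49189080 and TUBA1C at chr12:49188736-49274600. TUBA1A and TUBA1C overlap at their ends on opposite strands. TUBB (chr6:30717435-30725538) overlaps MDC1 on the opposite strand, and TUBB2A (chr6:3153497-3157544) and TUBB2B (chr6:3223324-3231730) lie near each other on chromosome 6. TUBB3 is at chr16:89921392-89938761, TUBB4A at chr19:6494319-6502848, TUBB4B at chr9:137241287-137243707 and TUBB6 at chr18:12307669-12344320. Each gene overlaps at least 1 gene on the other strand, and the sources used here do not say whether reads were counted by strand.

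The tubulin transcripts of 293T cells were dominated by 1 alpha and 1 beta gene. TUBA1B was at 1661.73 and 2067.94 TPM with scramble siRNA, at 1878.29 and 1987.57 with SETD2 siRNA and at 1841.36 and 1773.39 with hnRNP L siRNA. TUBB, the major beta-tubulin of dividing cells, was at 730.45 and 811.93 TPM with scramble siRNA, at 801.2 and 847.28 with SETD2 siRNA and at 882.95 and 877.08 with hnRNP L siRNA. TUBA1B gave 70.9% to 74.6% of the summed TPM of the 3 alpha genes, and TUBB gave 58.8% to 64.3% of that of the 7 beta genes.

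**Figure D1:**
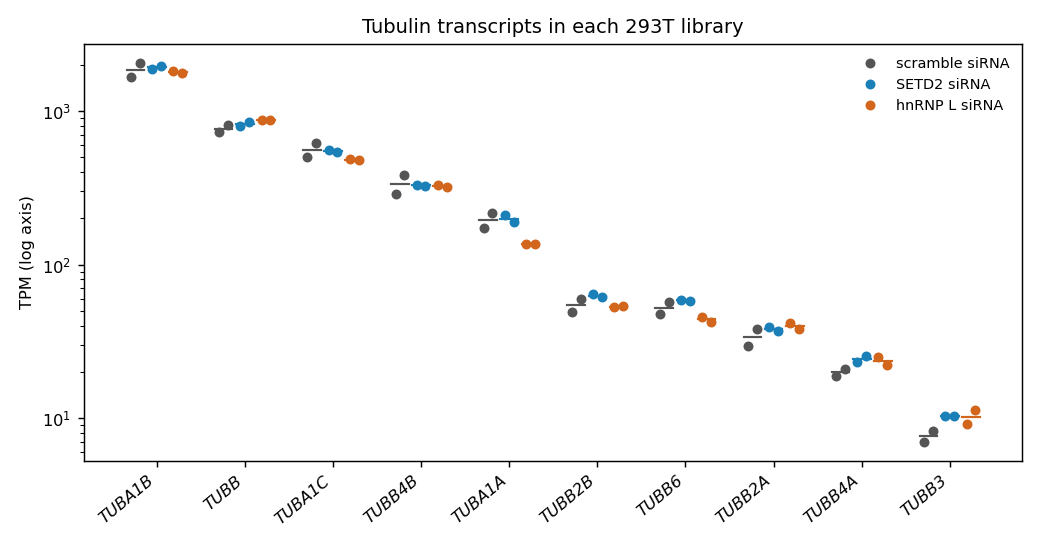
TPM (log axis) of the 10 tubulin genes, ordered by mean level, with 1 point per library and a line at the mean of each siRNA. TUBA1B lay at 1661.73 TPM or more in every library, and the hnRNP L siRNA points of TUBA1A, at 135.99 and 136.55 TPM, lay below the other 4. The hnRNP L siRNA points of TUBA1C and TUBB6 also lay below the other 4. Of all tested genes, 37.8% had both hnRNP L siRNA libraries below both scramble libraries, and 41.2% below both SETD2 siRNA libraries.

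Below these came TUBA1C, TUBB4B and TUBA1A. TUBA1C was at 503.25 and 622.72 TPM with scramble siRNA, at 561.63 and 546.4 with SETD2 siRNA and at 489.87 and 478.36 with hnRNP L siRNA. TUBB4B, a broadly expressed beta-tubulin that ciliated cells use in the axoneme, was at 288.8 and 384.9 TPM with scramble siRNA, at 330.86 and 325.32 with SETD2 siRNA and at 331.67 and 320.55 with hnRNP L siRNA. The levels of these genes did not overlap between neighbours in the order: the lowest library of each gene from TUBA1B through TUBB, TUBA1C and TUBB4B to TUBA1A was above the highest library of the next.

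TUBA1A, the alpha-tubulin prominent in developing neurons, was at 172.94 and 215.79 TPM with scramble siRNA, at 208.95 and 188.19 with SETD2 siRNA and at 135.99 and 136.55 with hnRNP L siRNA. Its hnRNP L siRNA libraries were below all others, as were those of TUBA1C and TUBB6, while its scramble and SETD2 siRNA libraries overlapped. Among all tested genes, 37.8% had both hnRNP L siRNA libraries below both scramble libraries, and 41.2% had them below both SETD2 siRNA libraries. The share of genes below all others at once was not counted.

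The remaining beta-tubulins were at lower levels. TUBB2B, another beta-tubulin of the developing nervous system, was at 49.15 and 59.62 TPM with scramble siRNA, at 64.11 and 61.22 with SETD2 siRNA and at 52.54 and 53.25 with hnRNP L siRNA. TUBB6 was at 47.7 and 56.64 TPM with scramble siRNA, at 59.09 and 57.68 with SETD2 siRNA and at 45.57 and 42.48 with hnRNP L siRNA. TUBB2B and TUBB6 were the only neighbours in the order whose ranges overlapped, 49.15 to 64.11 and 42.48 to 59.09 TPM.

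TUBB2A was at 29.22 and 37.95 TPM with scramble siRNA, at 39.29 and 36.84 with SETD2 siRNA and at 41.75 and 37.9 with hnRNP L siRNA. TUBB4A, known from the brain, was at 18.82 and 20.87 TPM with scramble siRNA, at 22.98 and 25.48 with SETD2 siRNA and at 24.84 and 22.12 with hnRNP L siRNA. TUBB3, widely used as a marker of neurons, was at 6.99 and 8.14 TPM with scramble siRNA, at 10.32 and 10.28 with SETD2 siRNA and at 9.13 and 11.18 with hnRNP L siRNA. Its scramble libraries were the lowest of the 6.

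The 2 scramble libraries differed from each other across the whole set. All 10 genes were lower in scramble library 1, by 0.15 to 0.41 on the log2 scale, where 58.9% of all tested genes were lower in that library with a median difference of -0.06. With mitochondrial genes left out of the scaling 8 of 10 were lower in it, and with median-ratio scaling 10 of 10. The comparisons with scramble siRNA below therefore carry this spread. It also enters the SE of the comparison between the depletions, since all libraries share 1 estimate of the spread. The part of library 1's mitochondrial share in the difference between the scramble libraries was not tested.

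The first comparison asks whether depletion of SETD2 changed tubulin mRNA. None of the 10 genes passed the test, which required an adjusted p below 0.05 together with a change of more than 1.5-fold, and 0.104% of the 16300 tested genes did. The log2 fold change was above 0 for 8 of 10 genes, against 52.6% of all tested genes, and its median was 0.13, against 0.01 over all. With an unadjusted p under 0.05 there were 2 of 10, TUBB3 and TUBB4A, against 13.1% of all. Both SETD2 siRNA libraries were above both scramble libraries for TUBB2B, TUBB3, TUBB4A and TUBB6, that is 4 of 10 genes against 22.9% of all tested genes, and for none of the 10 were both below, against 20.6%.

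TUBB3 had the largest difference, 10.3 ± 0.03 TPM against 7.57 ± 0.81 (SD, n = 2), a log2 fold change of 0.43 with SE 0.14 and an adjusted p of 0.265. TUBB4A was at 24.2 ± 1.77 TPM against 19.8 ± 1.45, with a log2 fold change of 0.28 (SE 0.12, adjusted p = 0.355). The other 8 genes lay between -0.02 and 0.21, and the 95% confidence interval of TUBA1B, the most abundant, ran from -0.24 to 0.35. For TUBA1A, TUBA1B, TUBA1C, TUBB and TUBB4B the sign of the small difference changed with the scaling or with the library left out.

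The second comparison asks the same of hnRNP L depletion. Again 0 of 10 genes passed, while 6.76% of the tested genes did, 5.01% lower and 1.75% higher. TUBA1A fell short of the fold change only: it was at 136 ± 0.40 TPM against 194 ± 30.3 (SD, n = 2), 70.1% of the scramble mean, with a log2 fold change of -0.50 (SE 0.12, 95% confidence interval -0.78 to -0.22) and an adjusted p of 0.0342. An adjusted p under 0.05 in the lower direction was reached by 1 of 10 tubulin genes and by 8.48% of all tested genes. An unadjusted p under 0.05 was reached by 2 of 10, TUBA1A and TUBB3, against 28.4% of all. Without scramble library 1 the log2 fold change of TUBA1A was -0.66 (adjusted p = 0.0378), which passed the test, and without scramble library 2 it was -0.34 (adjusted p = 0.0785). Its adjusted p was 0.0649 with median-ratio scaling, and between 0.071 and 0.201 without either SETD2 or either hnRNP L siRNA library, with log2 fold changes of -0.51 to -0.50.

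TUBA1C and TUBB6 were also below scramble in both hnRNP L siRNA libraries, without passing: the log2 fold changes were -0.21 (SE 0.12, adjusted p = 0.285) and -0.24 (SE 0.11, adjusted p = 0.199). Without scramble library 1 both were at -0.36 (adjusted p = 0.061 and 0.0998), and without scramble library 2 they were at -0.06 and -0.12 (adjusted p = 0.656 and 0.486). With quantile normalization TUBA1C had -0.30 (adjusted p = 0.0485), under the fold change of 1.5. With TUBA1A, 3 of 10 genes had both hnRNP L siRNA libraries below both scramble libraries, against 37.8% of all tested genes. TUBB, TUBB3 and TUBB4A were above scramble in both, 3 of 10 against 18.8% of all. TUBB3 had a log2 fold change of 0.40 (SE 0.14, adjusted p = 0.101), and its adjusted p was 0.038 with median-ratio scaling and 0.0347 with quantile normalization, still under the fold change of 1.5. TUBB had 0.19 (SE 0.10, adjusted p = 0.262). The log2 fold change was above 0 for 4 of 10 genes, against 38.8% of all tested genes. The median over the 10 genes was -0.03, against -0.08 over all tested genes, and TUBA1B, TUBB2B and TUBB4B changed sign among the scalings.

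**Figure D2:**
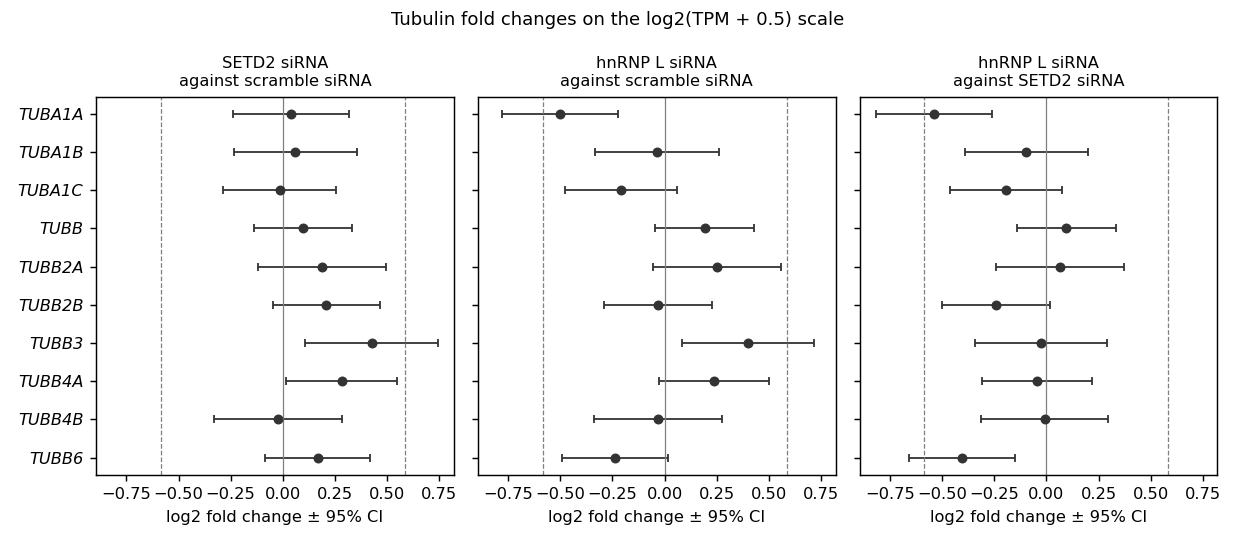
Log2 fold changes of the 10 tubulin genes on the log2(TPM + 0.5) scale in the 3 comparisons, with 95% confidence intervals of the limma fit. Dashed lines mark the fold change of 1.5 required for a call. No point lay beyond them. The intervals are not adjusted for the number of genes tested. They excluded 0 for TUBB3 and TUBB4A with SETD2 siRNA and for TUBA1A and TUBB3 with hnRNP L siRNA, both against scramble. Between the depletions they excluded 0 for TUBA1A and TUBB6.

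The third comparison sets the depletions against each other. The hnRNP L siRNA libraries are shared with the second comparison and the SETD2 siRNA libraries with the first, so it gives no independent evidence for either. None of the 10 genes passed, against 6.84% of all tested genes, 4.69% lower and 2.15% higher. TUBA1A was 1.45-fold lower with hnRNP L than with SETD2 siRNA, 136 against 199 TPM, with a log2 fold change of -0.54 (SE 0.12, adjusted p = 0.0279), and TUBB6 was at 75.4% of its mean with SETD2 siRNA, with -0.40 (SE 0.11, adjusted p = 0.0524). These were the 2 of 10 genes with an unadjusted p under 0.05, against 28.5% of all, and TUBA1A was the 1 of 10 lower at an adjusted p under 0.05, against 7.99% of all. Without SETD2 siRNA library 2 the log2 fold change of TUBA1A was -0.46 (adjusted p = 0.17), without library 3 it was -0.61 (adjusted p = 0.118), and without hnRNP L siRNA library 1 or 2 it was -0.54 (adjusted p = 0.185 and 0.147). With median-ratio scaling the adjusted p of TUBA1A was 0.0612. With quantile normalization it was 0.0347, and with mitochondrial genes left out of the scaling 0.0189. For TUBB6 the adjusted p in the same order were 0.116, 0.0967 and 0.0447, with log2 fold changes of -0.29, -0.29 and -0.36.

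Both hnRNP L siRNA libraries were below both SETD2 siRNA libraries for TUBA1A, TUBA1B, TUBA1C, TUBB2B and TUBB6, 5 of 10 genes against 41.2% of all tested genes. Only TUBB was above in both, 1 of 10 against 18.6%. The log2 fold change was above 0 for 2 of 10 genes, TUBB and TUBB2A, against 35.8% of all tested genes. The median over the 10 genes was -0.07, against -0.10 over all tested genes. Median-ratio scaling moved the median of all tested genes from -0.0990 to 0.0011 in this comparison, and under it the difference of TUBA1B was 0.01 rather than -0.10.

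Proportions among the tubulins do not depend on how a library is scaled. The summed alpha-tubulin TPM was 2337.92 and 2906.45 with scramble siRNA, 2648.87 and 2722.16 with SETD2 siRNA and 2467.22 and 2388.3 with hnRNP L siRNA. The summed beta-tubulin TPM was 1171.13 and 1380.05, 1327.85 and 1364.1, and 1388.45 and 1364.56 in the same order. The ratio of the alpha to the beta sum was 2.00 and 2.11 with scramble siRNA, 2.00 and 2.00 with SETD2 siRNA and 1.78 and 1.75 with hnRNP L siRNA, so the hnRNP L siRNA libraries had the lowest ratios. Together the 10 genes took 0.351% to 0.429% of all TPM. Sums over chosen genes are given without a test.

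TUBA1A made up 7.40% and 7.43% of the alpha sum with scramble siRNA, 7.89% and 6.91% with SETD2 siRNA and 5.51% and 5.72% with hnRNP L siRNA. Its ratio to TUBA1B was 0.104 in both scramble libraries, 0.111 and 0.0947 with SETD2 siRNA and 0.0739 and 0.077 with hnRNP L siRNA. The scramble libraries had like ratios although their TPM differed.

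TUBB6 made up 4.07% and 4.10% of the beta sum with scramble siRNA, 4.45% and 4.23% with SETD2 siRNA and 3.28% and 3.11% with hnRNP L siRNA. TUBB3 was a minor part throughout, at 0.590% to 0.819%. Rows of the table with other alpha- or beta-tubulin symbols, pseudogenes included, added 0.307% to 0.381% to the alpha total and 1.67% to 1.86% to the beta total, so the 10 genes held nearly all alpha- and beta-tubulin TPM.

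**Figure D3:**
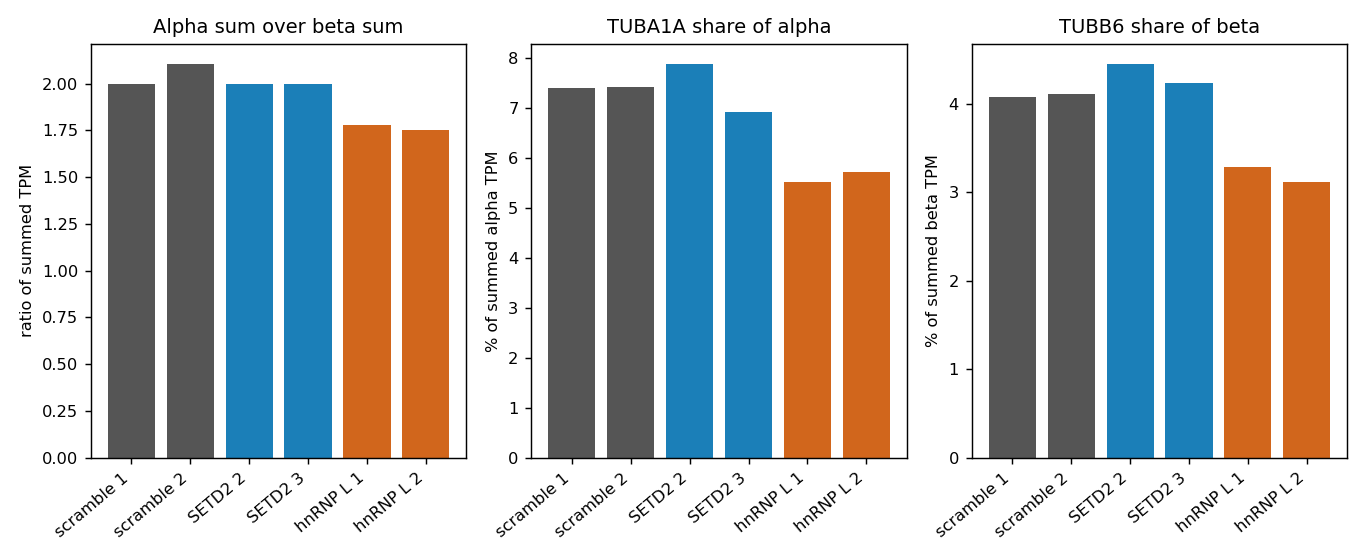
Ratio of the summed alpha- to beta-tubulin TPM, TUBA1A as a percentage of the alpha sum and TUBB6 as a percentage of the beta sum, with 1 bar per library and axes from 0. In all 3 panels the hnRNP L siRNA bars are the lowest, at 1.78 and 1.75, at 5.51% and 5.72%, and at 3.28% and 3.11%. Of the shares not shown, those of TUBA1C and TUBB2B were also lowest with hnRNP L siRNA. Those of TUBA1B (74.63% and 74.25%) and TUBB (63.59% and 64.28%) were highest with it.

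The genes whose pattern over the 6 libraries was most like that of TUBA1B were ACTR1A, a subunit of the dynein activator dynactin, ERI3 and ILF2. Their Euclidean distances from TUBA1B, over 6 centred log2 values and among 8011 genes, were 0.0571, 0.0601 and 0.0648, with Pearson correlations of 0.98, 0.97 and 0.98. As for TUBA1B, the lowest library of ACTR1A was scramble 1, at 61.68 TPM, and its highest scramble 2, at 77.9 TPM. With 6 libraries that share the spread of the scramble pair, this is a description only.

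The genes that make, fold, modify and bind tubulin were read in lists. The other tubulins, which include the gamma-, delta- and epsilon-tubulins of the centrosome, had 6 of 14 listed genes above the expression filter, and 0 passed in any comparison. TUBA8 was at 1.11 and 1.59 TPM with scramble siRNA and at 0.75 and 0.46 with hnRNP L siRNA (log2 fold change -0.74, SE 0.23, adjusted p = 0.0758). TUBD1 had 0.26 (adjusted p = 0.409) and TUBG2 -0.18 (adjusted p = 0.578) with SETD2 siRNA, TUBA4A had -0.22 (adjusted p = 0.421) with hnRNP L siRNA, and against SETD2 siRNA the smallest adjusted p were 0.0974 for TUBA8 and 0.104 for TUBD1. Of the 3 autoregulation factors 0 passed. TTC5 was at 9.9 and 14.32 TPM with scramble siRNA, at 16.96 and 14.48 with SETD2 siRNA and at 9.75 and 12.09 with hnRNP L siRNA, with adjusted p of 0.412 and 0.691 against scramble. Between the depletions TTC5 had a log2 difference of -0.51. There 1 of the 3 factors had an unadjusted p under 0.05, against 28.5% of all tested genes. SCAPER and CNOT11 had log2 fold changes between -0.16 and 0.05 in the 3 comparisons.

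Prefoldin and the CCT chaperonin capture and fold newly made tubulin. All 14 of their genes were tested and 0 passed. With SETD2 siRNA 13 of 14 log2 fold changes were above 0, against 52.6% of all tested genes, with PFDN6 at 0.41 (SE 0.11, adjusted p = 0.226) and PFDN2 at 0.40 (SE 0.10, adjusted p = 0.197). The count was 12 of 14 with median-ratio scaling, against 49.9% of all, and 6 of 14 with mitochondrial genes left out of the scaling, against 36.4% of all. With hnRNP L siRNA 12 of 14 were above 0, against 38.8% of all, and under these scalings 14 of 14, against 50.1%, and 9 of 14, against 33.2%. PFDN2 had 0.28 (adjusted p = 0.109) and CCT6A 0.23 (adjusted p = 0.153). PFDN6 was at 240.7 and 225.96 TPM with SETD2 siRNA and at 167.47 and 165.95 with hnRNP L siRNA, a log2 difference of -0.48 (adjusted p = 0.0319) that stayed under the fold change of 1.5, and CCT6A had 0.27 (adjusted p = 0.101) in that comparison.

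The tubulin folding cofactors take tubulin from the chaperonin and assemble the heterodimer. With hnRNP L siRNA 1 of 8 genes passed, against 6.76% of all tested genes, and this was TBCD, which binds beta-tubulin in that assembly. It was at 28.69 and 35.26 TPM with scramble siRNA, at 30.24 and 30.5 with SETD2 siRNA and at 16.69 and 17.05 with hnRNP L siRNA. It fell to 52.8% of the scramble mean (log2 fold change -0.90, SE 0.12, adjusted p = 0.00474) and was lower than with SETD2 siRNA (-0.83, adjusted p = 0.00643). Against scramble, its adjusted p was 0.0637 without hnRNP L siRNA library 1 and 0.0518 without library 2, with log2 fold changes of -0.88 and -0.91. Against SETD2 siRNA it was 0.0585 to 0.0745 without any 1 of the 4 libraries compared.

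TBCE, another cofactor, had 2 rows in the table under 1 symbol. The smaller (ENSG00000285053) was at 23.2 and 20.88 TPM with scramble siRNA, at 28.07 and 24.05 with SETD2 siRNA and at 21.05 and 24.31 with hnRNP L siRNA. The larger (ENSG00000284770) was at 64.88 and 79.35 TPM with scramble siRNA, at 79.52 and 79.6 with SETD2 siRNA and at 56.26 and 65.09 with hnRNP L siRNA, and did not pass against scramble (log2 fold change with hnRNP L siRNA -0.24, adjusted p = 0.233). With SETD2 siRNA 0 of 8 cofactors passed, with ARL2 at 0.35 (adjusted p = 0.339) and TBCA at 0.30 (adjusted p = 0.277). Between the depletions 1 of 8 passed, TBCD, against 6.84% of all tested genes. An unadjusted p under 0.05 was reached by 6 of 8, against 28.5% of all. The log2 difference was above 0 for 1 of 8, TBCB, against 35.8% of all. TBCB was at 101.64 and 125.58 TPM with scramble siRNA, at 129 and 118.64 with SETD2 siRNA and at 151.9 and 146.69 with hnRNP L siRNA. In the same comparison the larger TBCE row had -0.39 and TBCA had -0.36.

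Among the enzymes that modify tubulin, 18 of 26 were tested. With SETD2 siRNA 0 passed, with TTLL1 at 0.55 (adjusted p = 0.213) and TTLL12 at 0.38 (adjusted p = 0.199). With hnRNP L siRNA 2 of 18 fell and 0 rose against scramble, where 5.01% of all tested genes fell and 1.75% rose. VASH1, a carboxypeptidase that removes the terminal tyrosine of alpha-tubulin, was at 12.54 and 10.57 TPM with scramble siRNA, at 11.92 and 12.07 with SETD2 siRNA and at 6.48 and 7.27 with hnRNP L siRNA (log2 fold change against scramble -0.71, SE 0.13, adjusted p = 0.0135). Its adjusted p was 0.084 without scramble library 1 and 0.128 and 0.0701 without hnRNP L siRNA library 1 and 2, and under quantile normalization the fold change was under 1.5.

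TTLL3, a tubulin glycylase that shares its locus with the read-through gene ARPC4-TTLL3, was at 12.2 and 11.76 TPM with scramble siRNA, at 8.64 and 8.92 with SETD2 siRNA and at 5.41 and 7.96 with hnRNP L siRNA (log2 fold change with hnRNP L siRNA -0.82, SE 0.17, adjusted p = 0.0199). Its adjusted p was between 0.0532 and 0.133 without any 1 library other than hnRNP L siRNA library 2, and 0.0308 without that library.

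Against SETD2 siRNA, 2 of the 18 enzymes were lower with hnRNP L siRNA and 0 higher, against 4.69% and 2.15% of all tested genes. They were VASH1, with -0.76 (SE 0.13, adjusted p = 0.0111), and TTLL1, the catalytic subunit of a tubulin polyglutamylase. TTLL1 was at 5.43 and 6.22 TPM with scramble siRNA, at 8.4 and 9.09 with SETD2 siRNA and at 4.72 and 5.76 with hnRNP L siRNA (log2 difference -0.69, SE 0.14, adjusted p = 0.0209). Leaving out any 1 of the 4 libraries compared gave an adjusted p of 0.062 to 0.11 for VASH1 and of 0.0666 to 0.17 for TTLL1, with log2 differences of -0.84 to -0.69 and -0.82 to -0.56. With quantile normalization TTLL1 had -0.57, under the fold change of 1.5.

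ATAT1 and HDAC6, which add and remove the acetyl group of lysine 40, did not pass in any comparison. ATAT1 was at 9.14 and 9.08 TPM with scramble siRNA, at 8.75 and 9.44 with SETD2 siRNA and at 10.27 and 10.73 with hnRNP L siRNA. HDAC6, the main tubulin deacetylase, was at 53.47 and 56.71, at 56.22 and 61.07, and at 39.99 and 51.82 TPM in the same order (adjusted p with hnRNP L siRNA 0.214). TTL, which restores the terminal tyrosine, had log2 fold changes of -0.16 and -0.19 against scramble (adjusted p = 0.569 and 0.329), and VASH2 had 0.10 and 0.21 (adjusted p = 0.796 and 0.344).

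**Figure D4:**
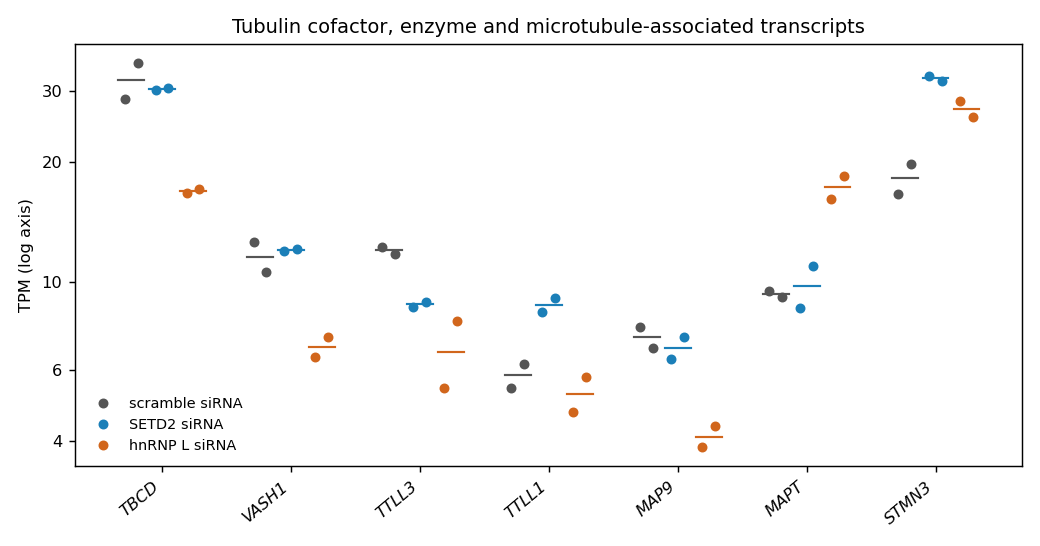
TPM (log axis) of TBCD, VASH1, TTLL3, TTLL1, MAP9, MAPT and STMN3, with 1 point per library and a line at the mean of each siRNA. TBCD, VASH1, TTLL3 and MAP9 were lower and MAPT higher in both hnRNP L siRNA libraries than in the other 4.

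Of the microtubule-associated proteins, 31 of 33 were tested. With hnRNP L siRNA 1 rose and 1 fell both against scramble and against SETD2 siRNA, so that 2 of 31 were called in each, against 6.76% and 6.84% of all tested genes. MAPT, which encodes the microtubule stabilizer tau, was at 9.48 and 9.18 TPM with scramble siRNA, at 8.58 and 10.94 with SETD2 siRNA and at 16.15 and 18.35 with hnRNP L siRNA (log2 fold change 0.85, SE 0.14, adjusted p = 0.0102, and 0.80 with adjusted p = 0.0126 against SETD2 siRNA). MAP9, a spindle-associated protein, was at 7.69 and 6.81 TPM with scramble siRNA, at 6.42 and 7.25 with SETD2 siRNA and at 3.85 and 4.34 with hnRNP L siRNA (log2 fold change -0.75, SE 0.14, adjusted p = 0.0137, and -0.67 with adjusted p = 0.0202 against SETD2 siRNA).

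Leaving out a library leaves its siRNA with 1 library, whose spread is then taken from the other groups. Against scramble, the adjusted p of MAPT was 0.0516 to 0.0851 without any 1 of the 4 libraries compared, with log2 fold changes of 0.76 to 0.94. Against SETD2 siRNA it was 0.0936 without SETD2 siRNA library 2, 0.0789 and 0.0979 without hnRNP L siRNA library 1 and 2, and 0.048 without SETD2 siRNA library 3, with log2 differences of 0.63 to 0.96. The adjusted p of MAP9 against scramble was 0.0897 without scramble library 1 and 0.125 and 0.0714 without hnRNP L siRNA library 1 and 2, where the log2 fold changes were -0.83 to -0.67. Against SETD2 siRNA it was 0.0826 to 0.159 without any 1 of the 4, with -0.76 to -0.59. With median-ratio scaling or quantile normalization MAP9 was under the fold change of 1.5 against SETD2 siRNA.

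The stathmins bind free tubulin dimers and promote microtubule disassembly. STMN3 was at 16.57 and 19.7 TPM with scramble siRNA, at 32.82 and 31.84 with SETD2 siRNA and at 28.41 and 25.89 with hnRNP L siRNA, so both depletions lay above scramble. Its log2 fold change was 0.82 with SETD2 siRNA (SE 0.12, adjusted p = 0.0599) and 0.57 with hnRNP L siRNA (SE 0.12, adjusted p = 0.0199, fold change under 1.5), and it passed in neither. Without scramble library 2 the value with hnRNP L siRNA was 0.69 (adjusted p = 0.0335), and with median-ratio scaling it was 0.67 (adjusted p = 0.0171), both of which passed. It was 0.45 (adjusted p = 0.087) without scramble library 1, and the adjusted p was 0.168 and 0.0855 without hnRNP L siRNA library 1 and 2 and 0.0511 and 0.0512 without SETD2 siRNA library 2 and 3. With SETD2 siRNA its adjusted p was 0.00935 to 0.563 over 19 alternatives and under 0.05 in 3 of them. STMN1, at 435.28 to 562.91 TPM, had 0.30 with SETD2 siRNA (adjusted p = 0.263) and 0.16 with hnRNP L siRNA (adjusted p = 0.326). MAP4, which binds along microtubules in most tissues, was between 56.15 and 71.89 TPM and had log2 fold changes of 0.12 and -0.06 (adjusted p = 0.657 and 0.744).

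The gamma-tubulin ring complex nucleates microtubules at the centrosome. All 11 of its genes were tested and 0 passed in any comparison, with TUBGCP6 at -0.28 (adjusted p = 0.335) and MZT2B at 0.27 (adjusted p = 0.343) with SETD2 siRNA, and NEDD1 at 0.28 (adjusted p = 0.359) and MZT2B at 0.23 (adjusted p = 0.208) with hnRNP L siRNA. The value of NEDD1 was 0.53 without hnRNP L siRNA library 1 and 0.02 without library 2. Between the depletions TUBGCP6 had 0.28 (adjusted p = 0.134) and MZT2A -0.20 (adjusted p = 0.263).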

How the data were processed

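Total RNA of 293T cells was depleted of ribosomal RNA, enriched for polyadenylated RNA and sequenced, per the labels and methods. The authors aligned reads to hg38 with STAR 2.6.1c and gene models of Ensembl release 96, and deposited gene-level TPM from RSEM 1.3.0, without read counts. ChIP samples were not analysed here.

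The 16300 genes of any biotype whose TPM averaged 0.5 or more were tested on log2(TPM + 0.5) in R 4.3.3 using limma 3.58.1, fitting each siRNA's mean without a replicate block, over all 6 libraries, with empirical Bayes moderation with a variance trend and Benjamini-Hochberg adjustment over all tested genes. Calls needed an adjusted p below 0.05 together with a change of more than 1.5-fold. The log2(TPM + 0.5) scale understates changes of low genes. A single gene tested by permutation of 2 against 2 libraries could not go below p = 0.333, so the spread was shared across genes. On simulated data for SETD2 against scramble siRNA (16300 genes) the fit recovered 173 of 200 changed genes and called 14 unchanged genes. Recovery of changes under 1.5-fold, the size of those in the tubulin genes, was not tested.

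The 10 tubulins, the gene lists and the rules were chosen with earlier results of these data known. Named genes are the tubulins, the siRNA targets, 8 listed pathway genes, and in each list the called genes or, with none called, the 2 with the smallest adjusted p. STMN3 and PFDN6 with hnRNP L siRNA, and VASH1, TTLL1 and TTLL3 outside the comparison that named them, were described after their values were seen. TBCB was also described after its values were seen. The genes most like TUBA1B had a mean of at least 10 TPM. Sequences were read from GENCODE release 44 with Biopython 1.88 in Python 3.11.15, and shared windows were exact matches of 75 bases. Alternatives were other pseudocounts, filters, scalings, cut-offs and samples, and the replicate block.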

Additional observations from a re-analysis of the deposited data

Results flagged for a closer look

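The scramble libraries enter the shared estimate of the spread in every comparison. The comparison of the depletions was the test of whether their effects against scramble siRNA differ, since the scramble means cancel in it. It gave an adjusted p under 0.05 for 1 of the 10 tubulins, TUBA1A, whose log2 difference of hnRNP L minus SETD2 siRNA was -0.54, and for 10.8% of all tested genes (1753 of 16300), with 7.99% of all tested genes lower. Among the 89 pathway genes tested it did so for 6, or 6.74%, again against 10.8% of all: TBCD (-0.83), VASH1 (-0.763), TTLL1 (-0.693), MAP9 (-0.674) and PFDN6 (-0.483), all lower with hnRNP L siRNA, and MAPT (0.798), which was higher. For TUBA1A and PFDN6 the fold change was under 1.5. For PFDN6 and TTLL1, the hnRNP L siRNA libraries overlapped those of scramble siRNA (log2 fold changes of -0.07 and -0.14), and the SETD2 siRNA libraries lay above scramble (0.41 and 0.55, adjusted p = 0.226 and 0.213). For TUBA1A, TBCD, VASH1, MAP9 and MAPT the SETD2 siRNA libraries overlapped those of scramble siRNA. Each of the 7 lost an adjusted p under 0.05 when 1 of the 4 libraries compared was left out, except that MAPT kept it without SETD2 siRNA library 3. The siRNA concerned then has 1 library, with its spread taken from the other groups, and the log2 differences were -0.845 to -0.815 for TBCD, -0.84 to -0.685 for VASH1, -0.824 to -0.562 for TTLL1, -0.756 to -0.593 for MAP9, -0.615 to -0.464 for TUBA1A, -0.529 to -0.438 for PFDN6 and 0.631 to 0.964 for MAPT.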

How the results depend on the processing

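The count of tubulin genes past the test stayed at 0 under 19 alternatives for SETD2 against scramble siRNA, 18 of 20 for hnRNP L against scramble siRNA and 18 of 19 for hnRNP L against SETD2 siRNA. It was 1, TUBA1A, with no fold change cut-off in both comparisons with hnRNP L siRNA. With 1 library left out, the counts ranged from 0 to 1 for hnRNP L against scramble siRNA (1 without scramble library 1) and stayed at 0 for the others. The signs of tubulin fold changes turned in 12 of 190, 7 of 200 and 20 of 190 values. The log2 fold change of TUBA1A with hnRNP L siRNA was -0.66 to -0.34 against scramble (adjusted p 0.0114 to 0.201, under 0.05 in 10 of 20 alternatives) and -0.61 to -0.43 against SETD2 siRNA (0.00807 to 0.199, under 0.05 in 11 of 19).

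Counts over all genes moved more. They were 17, 1102 and 1115 in the 3 comparisons, 1, 235 and 186 with no filter on low values, 60, 1288 and 1253 over protein-coding and lncRNA genes, and 13, 291 and 299 with a fold change above 2. Without the fold change cut-off they were 17, 1826 and 1753, and 27 genes were called in the first comparison with a mean of at least 1 TPM. With 1 library left out they ranged from 8 to 38, 172 to 821 and 127 to 1006. Of the called genes 74.0% were lower with hnRNP L than scramble siRNA, and 55.7% with median-ratio scaling. Against SETD2 siRNA these were 68.6% and 50.2%, and with SETD2 against scramble siRNA 47.1% as deposited and 64.7% without mitochondrial genes.

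Scramble and hnRNP L siRNA share the replicate numbers 1 and 2, but same-numbered libraries did not deviate together (r = -0.13). With the replicate block 0 tubulins and 715 genes were called, VASH1 and MAP9 were not (adjusted p = 0.0559 and 0.056), and TUBA1A and STMN3 lost an adjusted p under 0.05 (0.065 and 0.0625). With the numbers crossed, chosen after seeing the data, 0 tubulins and 1406 genes were called. SETD2 siRNA shares only number 2 with the others. A block over all 6 libraries, also chosen after seeing the data, gives its library 3 no weight. It called 0 tubulins and 27 genes for SETD2 against scramble siRNA and 0 tubulins and 96 genes for hnRNP L against SETD2 siRNA, where TBCD, VASH1, TTLL1, MAP9 and MAPT were not called (adjusted p 0.0777 to 0.284) and TUBA1A had an adjusted p of 0.199.

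The 2 libraries per siRNA and the lack of counts limit the precision, and TPM of near-identical paralogs depend on how RSEM divided shared reads.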
